A study of Arabidopsis thaliana with 6 samples.

Results

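The genes described here are 5 regulators of the nitrate response of Arabidopsis thaliana: BT1 (AT5G63160), BT2 (AT3G48360), TGA1 (AT5G65210), TGA4 (AT5G10030) and AFB3 (AT1G12820). They are 5 of 27444 protein-coding genes on the 5 nuclear chromosomes, and they were named by locus code. Every peak of the transcription factor NLP2 was assigned to one of them when its summit, the position of strongest enrichment, lay inside the gene or within 5000 bp of it, or when that gene was the nearest protein-coding gene. By this rule 6 of the 593 NLP2 peaks found after nitrate belonged to the 5 genes, and 0 of the 579 peaks found without nitrate did. Over all protein-coding genes, 5.55% had a peak after nitrate by this rule and 4.12% had one without. A count of 0 without nitrate therefore does not set these 5 genes apart, and they were picked with earlier results of these data known.

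NLP2 was located by chromatin immunoprecipitation and sequencing (ChIP-seq) with antibodies against GFP. All libraries came from whole seedlings of the mutant nlp2-2 in the Col-0 background, carrying NLP2-GFP driven by the NLP2 promoter (pNLP2). The seedlings, 14 days old by their label, had grown for 10 days on 3 mM nitrate and were then kept 3 days without nitrogen. One group (T30) next received 3 mM nitrate for 30 min, and the other (T0) received fresh nitrogen-free medium. Each time has 2 immunoprecipitated (IP) libraries and 1 input library of unprecipitated DNA. Both times share genotype and construct, and no library without the GFP fusion was analysed here. Whole seedlings mix roots and shoots, so a peak does not tell in which cells NLP2 was bound.

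Nitrate acts in plants both as a nutrient and as a signal. NIN-like proteins such as NLP2 are transcription factors that bind DNA beside nitrate-responsive genes, and many of those genes encode further regulators. BT1 and BT2 are BTB and TAZ domain proteins, scaffolds that can join the ubiquitin ligase subunit CUL3, and they limit nitrate uptake when nitrate is scarce. TGA1 and TGA4 are closely related bZIP transcription factors that act on the nitrate transporter genes NRT2.1 and NRT2.2 and on root growth after nitrate. AFB3 is an F-box auxin receptor of the TIR1 family, through which nitrate alters root branching, with the transcription factors NAC4 and OBP4 acting after it.

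The lists were called separately at each time from pooled replicates, so each peak has 1 value, no replicate error can be given and no test was made. The authors' fold per peak is a ratio of signal to background. It had a median of 2.75 and a maximum of 20.9 in the T30 list, and is used only to place peaks within that list. Read depth is unknown from these lists. Distances to genes are given in steps of 100 bp, because the gene table is of assembly TAIR10.1 while the peaks are on TAIR10. Strand was not in that table, so the sides of a gene are called its lower and its higher coordinate end.

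All 5 genes had a T30 peak. By the same rule 5.55% of all protein-coding genes had one (1523 of 27444), and 4.12% had a T0 peak. With the nearest gene alone, the 5 genes each still had a peak, against 1.84% of all genes. The 5 genes were picked with earlier results of these data known, so this count and the folds that follow are descriptions. Their highest folds ranged from 3.25 to 6.81 with a median of 5.27, beside a median highest fold of 2.87 over the 1523 genes with a T30 peak. That is not a like set: each of the 5 was the nearest gene to its highest peak, while only 506 of the 1523 were nearest to any T30 peak. Of the 6 peaks, 5 lay above the median fold of the list.

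**Figure D1:**
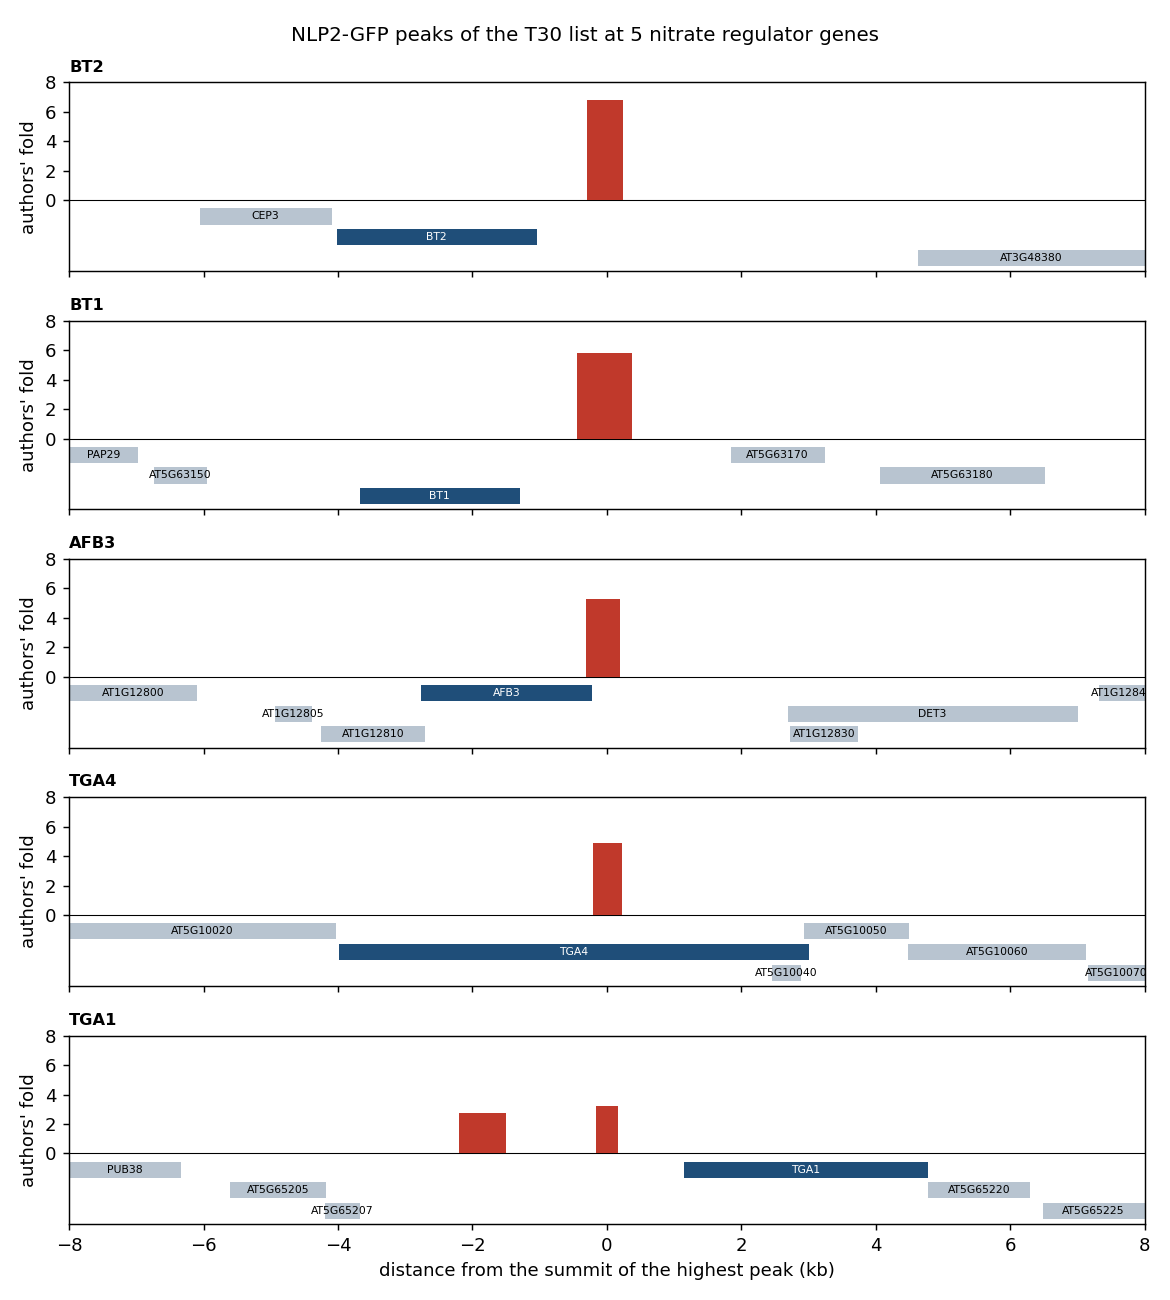
Each panel is centred on the summit of the highest T30 peak of 1 gene, with distance in kb on the horizontal axis and the authors' fold as bar height, each bar as wide as its peak. Dark boxes show the named gene and pale boxes its protein-coding neighbours, as spans without strand. The peaks of BT2, BT1 and TGA1 lie between genes, that of AFB3 beside the gene and that of TGA4 inside the span of the gene table, and TGA1 alone has 2 peaks.

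The scaffold gene BT2 had the highest fold of the 5 genes. Its peak, at 17911489 to 17912017 of chromosome 3, had a fold of 6.81 and a −log10 q of 332, with the summit at 17911782. It ranked at position 30 of 593 in the T30 list. The summit lay about 1000 bp beyond the higher coordinate end of BT2, just outside a 1000 bp flank. The stretch around it held few other genes: the next protein-coding genes were CEP3, about 4100 bp away on the far side of BT2, and AT3G48380, about 4600 bp away on the other side. The nearest other T30 summit was 169 kb away.

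BT1, the close relative of BT2, also had a peak beyond its higher coordinate end. It ran on chromosome 5 from 25336404 to 25337230, with the summit at 25336856, a fold of 5.78 and a −log10 q of 246, and ranked at position 46. The summit lay about 1300 bp beyond the higher coordinate end of BT1. AT5G63170 lay about 1800 bp away on the other side of the summit, so BT1 was the nearer gene. At 827 bp this was the widest of the 6 peaks, against a median width of 435 bp in the list, and 72 peaks of the list were wider.

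The rest of the BT family was read from the same lists. BT5 (AT4G37610) had a T30 peak at 17673371 to 17674040 of chromosome 4, of fold 5.24, with position 64 and a summit about 1400 bp beyond the higher coordinate end of the gene. BT3 and BT4 had no T30 peak by the rule, while 5.55% of all protein-coding genes had one. The 3 BT genes with a peak thus had folds of 5.24 to 6.81, and all 3 summits lay 1000 to 1400 bp outside the gene on the higher coordinate side. Without strand, this does not tell whether that side is the start or the end of each gene. None of these 3 summits had a protein-coding gene within 1000 bp.

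AFB3, the auxin receptor gene, had a peak close to one end. It ran on chromosome 1 from 4371205 to 4371707, with the summit at 4371517, a fold of 5.27 and a −log10 q of 209.6, and ranked at position 63. The summit lay about 200 bp beyond the higher coordinate end of AFB3. On the other side of the summit, DET3 and AT1G12830 were both about 2700 bp away. AFB3 was the only protein-coding gene within 1000 bp of this summit.

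None of the other 5 genes of the auxin receptor family, TIR1, AFB1, AFB2, AFB4 and AFB5, had a T30 peak by the rule. Over all protein-coding genes the share with one was 5.55%, so 0 of 5 says little about this family. Of the transcription factors placed after AFB3, NAC4 (AT5G07680) had a T30 peak with a fold of 3.35 at a distance of about 2100 bp. Another gene, AT5G07670, was nearer to that summit. OBP4 had no T30 peak.

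By the spans of the gene table, TGA4 was the only one of the 5 genes with a summit inside it. The peak ran on chromosome 5 from 3141068 to 3141495, with the summit at 3141272, a fold of 4.90 and a −log10 q of 178, and ranked at position 76. The gene table gives TGA4 a span of about 7000 bp over 5 transcripts, beside a median of 2100 bp for protein-coding genes. The summit lay about 4000 bp from the lower and 3000 bp from the higher coordinate end of that span. The TAIR10 gene model itself and the extent of each transcript were not analysed here, so in a shorter model of TGA4 the summit may lie outside the gene. The nearest other gene, AT5G10040, lay about 2500 bp away and overlaps the span of TGA4.

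TGA1, the closest relative of TGA4 among the 5 genes, had the lowest highest fold of them and was the only one with a pair of peaks. Its higher peak ran on chromosome 5 from 26056229 to 26056549, with the summit at 26056389, a fold of 3.25 and a −log10 q of 71.7. It stood at position 204, a place it shares with 2 other peaks of the same fold. The summit lay about 1100 bp beyond the lower coordinate end of TGA1. This peak was the narrowest of the 6, at 321 bp.

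The lower TGA1 peak ran from 26054186 to 26054885, with the summit at 26054332, a fold of 2.72 and a −log10 q of 45.0, at position 308. It was the only one of the 6 below the median fold of the list, at 0.99 times that median. Its summit was about 3200 bp from TGA1 and about 1600 bp from AT5G65207, so TGA1 was not its nearest gene. The 2 summits were 2057 bp apart, with 1343 bp between the peaks. In this lower peak the summit stood at 20.9% of the width, counted from the lower coordinate end, while in the other 5 it stood at 47.8% to 62.1%. Of all protein-coding genes, 0.499% had 2 or more T30 peaks by the rule, which is 137 genes beside the 1523 with any T30 peak. Other genes named here did too. LBD37, HHO2 and the neighbours NRT2.1 and NRT2.2 had 3, and LBD38, LBD39, HRS1 and HHO3 had 2.

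In the TGA family, TGA1 and TGA4 were the only genes with a T30 peak by the rule, 2 of 10. Over all protein-coding genes the share was 5.55%, so 0 among the 8 others says little about them. TGA2, TGA3, TGA5, TGA6, TGA7, TGA9, TGA10 and PAN had none, although with a flank of 10000 bp PAN gained peaks whose nearest gene was HHO2, and the count became 3. Of the transporter genes on which TGA1 and TGA4 act, NRT2.1 had a fold of 5.40 in a peak about 100 bp from the gene. That peak is also within 5000 bp of its neighbour NRT2.2, whose nearest peak is another one. NRT1.1, which encodes the nitrate transporter and sensor, had a T30 peak with a fold of 2.60 about 4400 bp away. Its signalling kinase gene CIPK23 had one with a fold of 2.74 about 700 bp away. CIPK8, CUL3A and CUL3B had none. With NAC4 and OBP4 included, 5 of the 9 partner genes had a T30 peak by the rule. These calls rest on 6 distinct peaks, since NRT2.1 and NRT2.2 share peaks. With the nearest gene alone, 4 of the 9 had one.

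**Figure D2:**
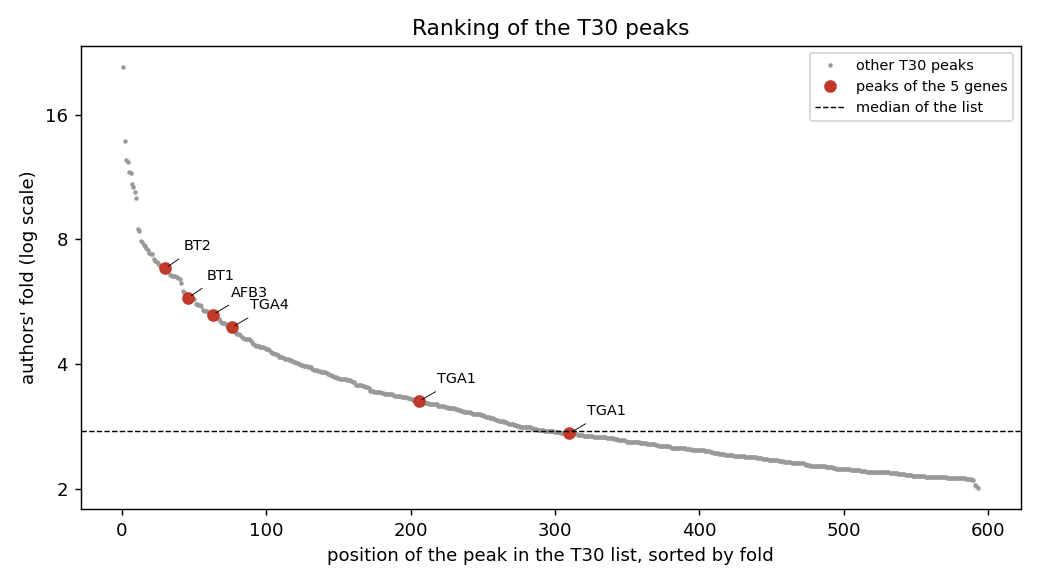
The 593 peaks of the T30 list are sorted by the authors' fold on a log axis, with the 6 peaks of the 5 genes in red and the median of the list as a dashed line. The highest peaks of BT2, BT1, AFB3 and TGA4 stand among the first 100, and those of TGA1 rank at 204 and 308. Peaks of equal fold share the first of their places in this rank but are drawn side by side.

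Ranked by the highest peak of each gene, the order was BT2, BT1, AFB3, TGA4 and TGA1, with folds of 6.81, 5.78, 5.27, 4.90 and 3.25. Without replicate values it cannot be said which neighbours in this order differ beyond their spread. Among the 506 genes nearest to a T30 peak, 28 had a higher fold than BT2, 44 than BT1, 59 than AFB3, 72 than TGA4 and 187 than TGA1. The highest peaks of the first 4 genes held positions 30 to 76 of the list, and that of TGA1 position 204.

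The genes closest to each of the 5 in fold were read from the peaks directly above and below in the T30 list. BT2 stood between the glucose-6-phosphate dehydrogenase gene G6PD2 with a fold of 6.88 and the vacuolar calcium exchanger gene CAX1 with 6.77. BT1 stood between AT5G52050 with 5.88, in a peak about 5000 bp from that gene, and AT3G60750 with 5.77. AFB3 stood between a peak of the nitrate reductase gene NIA1 with 5.27 and the BT5 peak with 5.24. TGA4 stood between AT1G12100 with 4.94 and AT3G58610 with 4.86. TGA1 shared its fold of 3.25 with a peak about 900 bp from AT3G28690 and one nearest to the sucrose transporter gene SUC1, though about 9300 bp from it. None of these neighbouring peaks overlapped a T0 peak, but by the rule used for the 5 genes AT5G52050 and AT1G12100 did have a T0 peak elsewhere in or near the gene. This likeness is in 1 value of 1 list only.

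**Figure D3:**
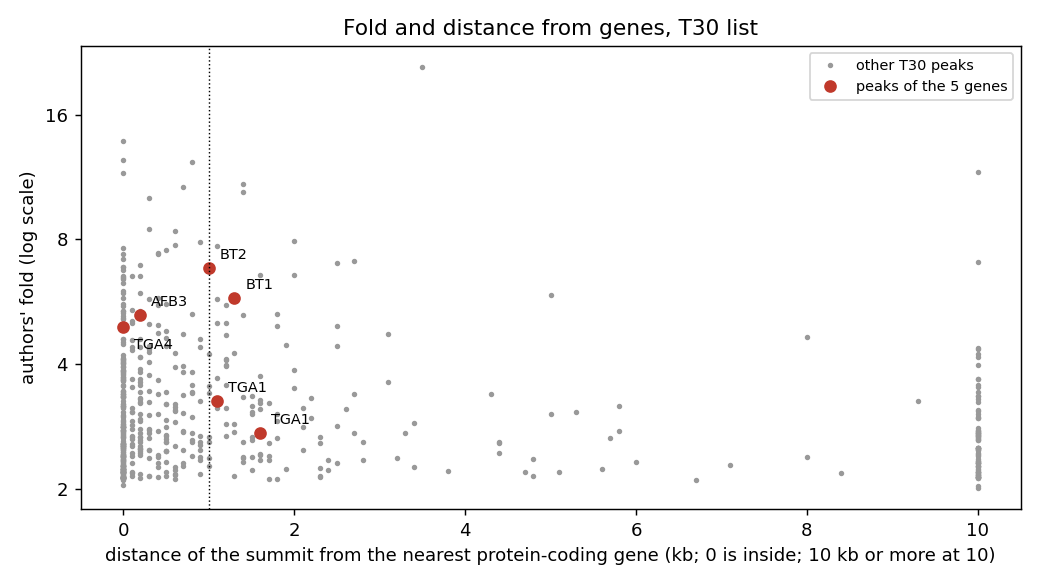
Each point is 1 T30 peak, with the distance of its summit from the nearest protein-coding gene in kb (0 inside a gene, 10 for 10 kb or more) against the authors' fold on a log axis, and the dotted line at 1 kb. The BT2 and BT1 peaks and the higher TGA1 peak lie 1.0 to 1.3 kb from their gene, and the lower TGA1 peak is drawn at its distance from AT5G65207.

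The distances of the 5 genes were set beside those of the whole list. Of the 593 T30 summits, 195 were inside a protein-coding gene, 189 stood outside at a distance of up to 1000 bp and 68 stood farther out, up to 2000 bp. The highest peaks of BT1, BT2 and TGA1 belong to the last class, which makes up 11.5% of the list and had a median fold of 3.19. That class held 13 peaks with a fold of 5 or more, BT1 and BT2 among them. Inside genes, where the TGA4 summit lies by the span of the gene table, the median fold was 2.67 and 22 peaks reached a fold of 5. Outside genes up to 1000 bp, where AFB3 lies, it was 3.04 and 29 peaks reached it.

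Without nitrate, 0 of the 5 genes had a peak. Over all protein-coding genes only 4.12% had a T0 peak, so a count of 0 among 5 does not set these genes apart. The T0 peak nearest to any of them was about 25.0 kb from BT2, at 17882633 to 17882981 of chromosome 3, and its fold in the T0 list was 1.97. For AFB3 the nearest T0 summit was 69.6 kb away, for TGA4 77.7 kb, for TGA1 99.3 kb and for BT1 128 kb. Of the 6 T30 peaks, 0 overlapped a T0 peak and 0 overlapped an input peak of either time. Over all 593 T30 peaks these shares were 19.2% (114 peaks) and 5.4% (32 peaks), so counts of 0 among 6 say little about these genes in particular. The nearest input peaks to any of the 5 genes, one at each time, lay 109 kb from TGA4.

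Absence from the T0 list is absence from a filtered list. The deposited peaks carry serial numbers that follow genome order in all 578 consecutive pairs of the T0 list and all 592 of the T30 list. The numbers run to 32712 at T0 and to 23451 at T30, so the deposited peaks amount to 1.77% and 2.53% of the highest number. What the numbers count is not stated in the lists, and reading a missing number as a T0 peak left out of the list is an assumption. Around each of the 5 genes, numbers are missing between the deposited T0 peaks on either side. They number 40 around AFB3, 79 around BT1, 82 around TGA1, 150 around BT2 and 308 around TGA4, over 151 to 983 kb. Numbers are missing around each gene in the T30 list as well: 21 around AFB3, 162 around BT1, 12 around TGA1, 112 around BT2 and 36 around TGA4. Missing numbers are thus not particular to T0. Whether any missing T0 number stands for signal at these genes was not tested. The numbers of the 2 TGA1 peaks, 23254 and 23255, follow each other.

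**Figure D4:**
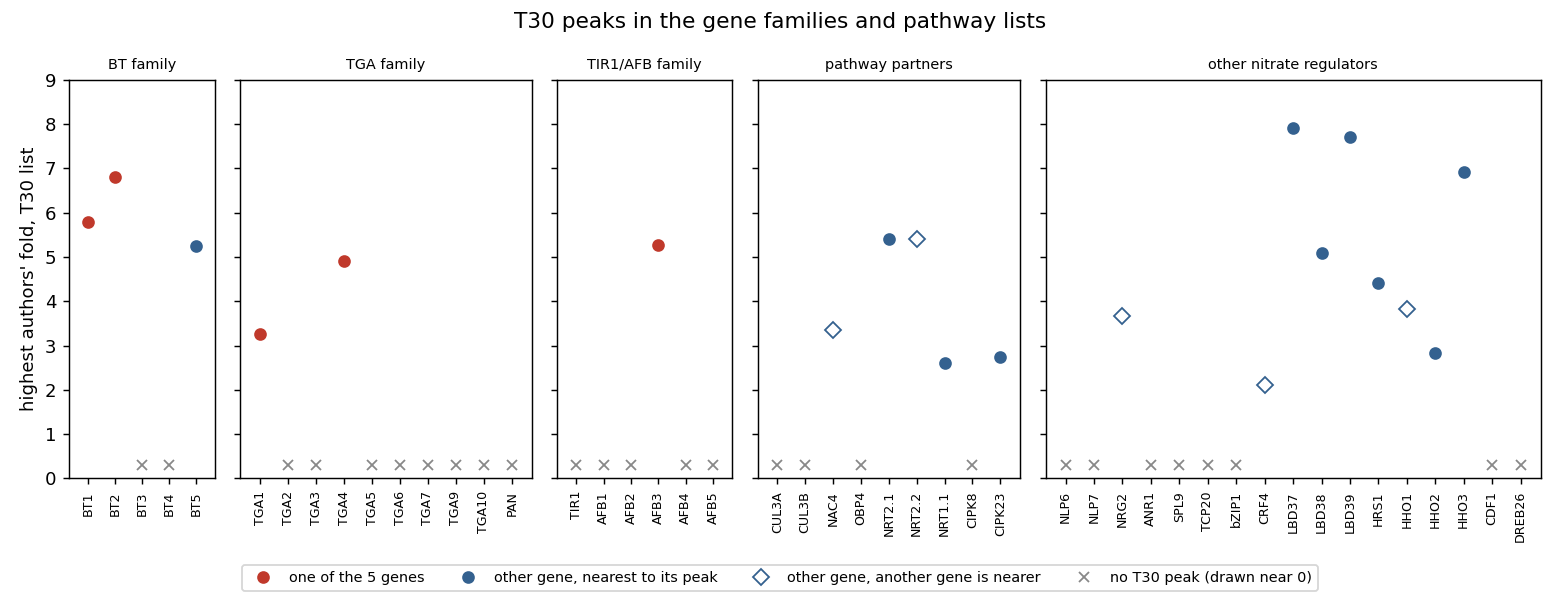
The highest authors' fold in the T30 list is shown for each of 47 genes in 5 lists. Red points are the 5 genes described, blue points other genes nearest to their peak, open diamonds genes whose peak is nearer to another gene, and crosses, drawn near 0, genes without a T30 peak. In the BT, TGA and auxin receptor families 6 of 21 genes have a peak, 5 of them the genes described, and 1 of the 16 others does. Among the other nitrate regulators 9 of 17 do. By the same rule 5.55% of all protein-coding genes have one.

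Other regulators of the nitrate response were compared by the same rule. Of 17 genes, chosen with earlier results of these data known, 9 had a T30 peak and 0 a T0 peak. Over all protein-coding genes these shares were 5.55% and 4.12%, so the 0 at T0 says little about the 17 genes. With the nearest gene alone, 6 of the 17 had a T30 peak. The median of the highest folds was 4.42, with the LOB-domain gene LBD37 highest at 7.92 and the cytokinin response factor gene CRF4 lowest at 2.11. LBD38, LBD39, HRS1, HHO1, HHO2, HHO3 and NRG2 were the others with a peak. For NRG2, HHO1 and CRF4 another gene was nearer to the summit. NLP6, NLP7, ANR1, SPL9, TCP20, bZIP1, CDF1 and DREB26 had none. The folds of BT2, BT1, AFB3 and TGA4 fell within the range of this list and above its median, while that of TGA1 fell below its median.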

How the data were processed

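Per the submitters' processing notes, the authors used MACS2 2.1.1, SAMtools 1.7 and Bowtie2 2.3.4.1 on build TAIR10. Per the file headers and names, the 2 IP lists pool the replicates of a time under a reproducibility filter (IDR), and the input lists hold peaks called in input DNA. The IP lists are also named noINPUT, a term not explained in the sources used here. Even so, 32 of the 593 T30 peaks overlapped an input peak. The authors' fold per peak is a deposited ratio. Their −log10 q is deposited per peak, and the deposited score equals 10 times −log10 q rounded down. The deposited lists also give the summit offset.

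Positions are printed 1-based on TAIR10. Gene names, spans and neighbours came from a RefSeq table of assembly TAIR10.1, on the assumption that nuclear coordinates are the same. All 47 genes of the 5 lists were found in it by locus code. Peaks overlapped when they shared at least 1 bp. Distances, ranks and counts were computed in Python 3.11.15 with pandas 2.3.3, and the assignment of peaks to genes was tested on simulated data. The genes and lists were chosen with earlier results of these data known. Named genes were the 5 genes, every list gene, and the nearest genes of the peaks directly above and below each highest peak in fold. Promoter motifs and protein comparisons, though planned, were not analysed here. The labels do not say whether the replicates came from separate cultures.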

Additional observations from a re-analysis of the deposited data

How the results depend on the processing

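The 5 genes had 6 T30 peaks and 0 T0 peaks, and the counts with a 2000 bp flank alone, a 10000 bp flank, any base of the peak, the nearest gene alone, all annotated genes, a fold at or above the list median, a shared q cut-off or input overlaps left out stayed within a factor of 1.5 of these. A flank of 1000 bp alone left 2 peaks and 2 genes at T30, AFB3 and, by its span in the gene table, TGA4. With this flank 0 BT genes, 1 TGA gene and 3 partner genes had a peak. The partner genes also numbered 3 with a flank of 2000 bp alone and with the fold at or above the list median. The share of all genes with a T30 peak was 1.91% with a flank of 1000 bp, 2.75% with 2000 bp, 9.50% with 10000 bp, 1.84% with the nearest gene alone and 3.05% at or above the median fold. At T0 these shares were 1.35%, 1.97%, 6.88%, 1.63% and 1.77%, and the shared q cut-off, a −log10 q of 20.4 that left 257 T0 peaks, gave 1.38%. TGA1 had 1 peak instead of 2 with a flank of 2000 bp, with the nearest gene alone and at or above the median fold. With a required overlap of 0.5 of the shorter peak, 0 of the 6 peaks overlapped a T0 peak, as with 1 bp, while over all 593 T30 peaks the share was 19.1% against 19.2%.

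No paired analysis was possible because the deposited lists pool the replicates of each time. For the same reason no replicate was left out. The alternatives for promoter motifs were not run. Depth is unknown, so no limit of detection can be given for either list.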
